A study of Mus musculus with 4 samples.

Results

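RNA of 6 fibroblast growth factor (FGF) ligand genes, Fgf3, Fgf4, Fgf8, Fgf10, Fgf15 and Fgf17, and of the 4 FGF receptor genes, Fgfr1, Fgfr2, Fgfr3 and Fgfr4, was followed in mouse embryonic stem cells that had lost the cytokine LIF, which holds such cells in the undifferentiated state. The 10 genes were chosen by symbol. They own 20 of the 35656 transcript rows in each library and 10 of the 27408 genes or unnamed transcripts those rows sum to. Fgf8, Fgfr1, Fgfr2 and Fgfr3 have more than 1 row each, and the other 6 genes have 1.

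All 4 libraries are poly(A) RNA sequencing of the CJ9 embryonic stem cell line (strain 129S4/SvJae), labelled WT and titled as Cas9 only, so both groups share that treatment and neither carries a deletion. One group is 2 libraries collected at day 4 without LIF and the other 2 libraries collected at day 6, all in medium with serum. The free text on culture gives 2, 4, 6 and 6 days without LIF for day 4 replicate 1, day 6 replicate 1, day 4 replicate 2 and day 6 replicate 2, which goes against the titles and harvest entries for 3 of the 4 libraries. The titles were followed. No label says that the 2 libraries of a day are separate cultures, so p-values rest on a spread between libraries that may be purely technical. The deletion of the Evx1as/Evx1 locus that the series is about was not analysed here.

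FGF ligands are secreted proteins that bind, with heparan sulfate as a cofactor, to receptor tyrosine kinases, and in early embryonic cells the signal runs mainly through the RAS, RAF, MEK and ERK kinases. FGF4 is the ligand that undifferentiated cells and the early epiblast make, and it pushes them out of the naive state and towards primitive endoderm. FGF8 and FGF17 belong to 1 subfamily and are made in the primitive streak, where cells leave the epiblast. FGF3 and FGF10 act mainly on the IIIb forms of the receptors in epithelia, and FGF15 is a member of the endocrine subfamily that also serves in the early nervous system and gut.

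The receptor forms called IIIb and IIIc differ in 1 exon, which encodes the second part of the third immunoglobulin-like domain and sets which ligands can bind. The IIIb exons are shown because the transcript rows of Fgfr2 and Fgfr3 can be told apart by them. They are coding exons of GENCODE M21 transcripts on GRCm38 (the build that mm10 stands for), printed 5′ to 3′, with runs of at least 6 aligned bases shared between the pair in capitals. The Fgfr2 exon lies on the minus strand at chr7:130199758-130199905 and the Fgfr3 exon on the plus strand at chr5:33731281-33731431.
Fgfr2 IIIb exon: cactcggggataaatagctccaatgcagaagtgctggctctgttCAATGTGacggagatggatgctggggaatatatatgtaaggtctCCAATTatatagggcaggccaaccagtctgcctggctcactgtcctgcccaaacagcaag
Fgfr3 IIIb exon: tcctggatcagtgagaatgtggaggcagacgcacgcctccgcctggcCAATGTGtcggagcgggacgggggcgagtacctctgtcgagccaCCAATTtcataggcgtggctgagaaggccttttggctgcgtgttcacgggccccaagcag
This pair of exons was identical at 91 aligned bases (61.5% of 148, the length of the shorter exon).

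Short stretches also tell apart the rows of Fgf8 and Fgfr1. The first 63 bases of an Fgf8 coding exon (minus strand, chr19:45741617-45741679) are shown with the 33 bases that 2 of the 4 rows carry in capitals. Transcripts with this stretch include Fgf8b, the form with strong affinity for IIIc receptors, and those without it include Fgf8a. In the 90-base Fgfr1 coding exon (plus strand, chr8:25557731-25557820) the capitals mark 6 bases that NM_001079908 lacks.
Fgf8 exon start: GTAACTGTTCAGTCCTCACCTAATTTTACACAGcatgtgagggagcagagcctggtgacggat
Fgfr1 exon: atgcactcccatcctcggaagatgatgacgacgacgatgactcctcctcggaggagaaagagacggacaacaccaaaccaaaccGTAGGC

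Levels are in FPKM (fragments scaled to transcript length and library depth), summed over a gene's rows, and are always given in the order day 4 replicate 1, day 4 replicate 2, day 6 replicate 1, day 6 replicate 2. The depth estimated from the deposited intervals was about 3790000, 3640000, 6600000 and 5870000 fragments, so low values are less precise at day 4. The day 4 libraries stood apart from each other: replicate 2 had 9461 genes at 1 FPKM or more against 11223 to 11854 in the other 3, and its gap to replicate 1 moved with the GC content of transcripts. The log2 differences of the 9 tested genes, and others where named, are therefore also given without each day 4 library. All 8 embryonic stem cell markers were at 1 FPKM or more on both days, and their summed level was 675 and 887 FPKM at day 4 and 221 and 219 at day 6. In both day 6 libraries 4 of the 8 were lower (Pou5f1, Nanog, Sox2, Utf1) and 3 higher (Esrrb, Klf4, Zfp42). The 6 primed epiblast markers were all lower in both day 6 libraries (sums of 320, 593, 72.4 and 66.9 FPKM), as were 6 of the 8 primitive streak markers (268, 693, 26.8 and 26.4). Among all genes tested, 41.5% were higher in both day 6 libraries and 11.5% lower, so 3 of 8 higher is near the share of all genes. Markers were counted on the deposited scale only. Fibroblast markers summed to 11.2, 9.26, 147 and 278 FPKM, with Postn, Lum and Dcn at 0 at day 4. Extraembryonic endoderm markers summed to 9.99, 16.8, 44.0 and 65.6 FPKM, with Ttr, Afp and Apoa1 at 0 at day 4. Afp was also at 0 in both day 6 libraries, and Apoa1 in day 6 replicate 1. Whether changes in the makeup of the cultures account for any difference below was not tested. In RNA from whole cultures, fewer cells of a type and less RNA per cell cannot be told apart.

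The comparison of day 6 with day 4 asks how the FGF genes move as differentiation goes on. Genes whose mean reached 1 FPKM were tested, which took in 9 of the 10. Of these, 4 had both day 6 values above both day 4 values (Fgf3, Fgf15, Fgfr1, Fgfr2), 3 had both below (Fgf4, Fgf8, Fgf17) and 2 overlapped (Fgf10, Fgfr3). Over all 11736 genes tested, 41.5% were higher without overlap and 11.5% lower, 53.1% in all. None of the 9 passed an adjusted p of 0.05 in limma, a linear model fitted across all genes with Benjamini-Hochberg adjustment, and 0% of all genes did (0 genes, against 1806 at an unadjusted p under 0.05). Across all genes tested the log2 difference had a median of 0.51 in favour of day 6, and the differences below read against that shift. With each library centred on its median the shift was -0.12 and the shares without overlap were 20.3% higher and 26.4% lower. Under that scaling Fgf15 and Fgfr2 stayed higher without overlap, Fgf4, Fgf8 and Fgf17 stayed lower, and Fgf3 and Fgfr1 overlapped. With a correction for GC content the shares were 28.1% and 27.3%, and the same 4 genes were higher and the same 3 lower as without it.

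**Figure D1:**
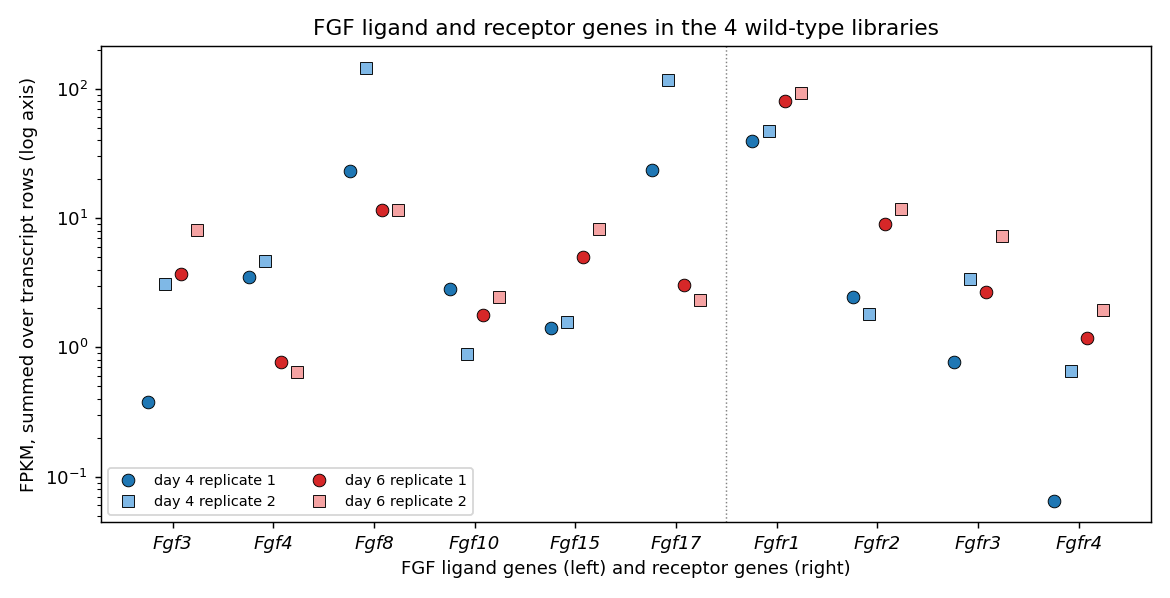
FPKM of each gene (log axis) in the 2 day 4 libraries (blue) and the 2 day 6 libraries (red), circles for replicate 1 and squares for replicate 2. Fgf8 and Fgf17 span 22.9 to 146 and 23.6 to 118 FPKM at day 4 and lie at or below 11.5 and 3.03 FPKM at day 6, and the Fgfr1 and Fgfr2 points of day 6 lie above those of day 4.

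Fgf8, a ligand of the primitive streak and of many later organizing centres, measured 22.9, 146, 11.50 and 11.51 FPKM. Both day 4 libraries were above both day 6 libraries, but they differed 6.36-fold from each other while the day 6 libraries nearly coincided. The mean was 84.3 ± 86.8 FPKM at day 4 and 11.5 ± 0.00882 at day 6 (SD, n = 2), a ratio of 7.32. The log2 difference, day 6 minus day 4, of log2(FPKM + 1) was -2.24 (SE 0.98, limma adjusted p = 0.368). It was -3.55 without day 4 replicate 1 and -0.93 without day 4 replicate 2, so its size depends on which day 4 library is used. The summed primitive streak markers were also highest in day 4 replicate 2 and lowest at day 6, and their part in the Fgf8 and Fgf17 values was not tested.

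Fgf17, the close relative of Fgf8, measured 23.6, 118, 3.03 and 2.33 FPKM. The groups lay far apart, with both day 4 values over 7 times any day 6 value. The mean was 70.6 ± 66.5 FPKM at day 4 and 2.68 ± 0.490 at day 6 (SD, n = 2), a ratio of 26.4. Its log2 difference of -3.88 (SE 0.88, limma adjusted p = 0.265) was exceeded downwards by 0.0852% of all genes tested. Without day 4 replicate 1 it was -5.02, and without day 4 replicate 2 it was -2.75.

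The gap between the day 4 libraries in these genes has a counterpart in base composition. Fgf8 rows average 63.6% GC and the Fgf17 row 58.1%. Day 4 replicate 2 exceeded replicate 1 by 2.62 (Fgf8) and 2.27 (Fgf17) on the log2 scale, against a median gap of 1.71 over 270 genes within 2% of the GC content of Fgf8 and 0.99 over 1892 genes within 2% of that of Fgf17. Larger gaps were seen in 19.3% and 8.30% of those genes. With the GC correction the log2 differences were -2.22 (SE 0.42) for Fgf8 and -4.18 (SE 0.52) for Fgf17, with adjusted p of 0.169 and 0.168 in limma.

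Fgf4, the ligand of undifferentiated cells, measured 3.47, 4.62, 0.771 and 0.641 FPKM. Both day 4 libraries were above both day 6 libraries, and here the 2 libraries of a day lay close together. The mean was 4.04 ± 0.811 FPKM at day 4 and 0.706 ± 0.0919 at day 6 (SD, n = 2), a ratio of 5.73. Its log2 difference was -1.56 (SE 0.38, limma adjusted p = 0.266), and it stayed at -1.72 and -1.39 without day 4 replicate 1 or 2.

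Fgf15, the mouse counterpart of human FGF19, measured 1.42, 1.56, 5.00 and 8.16 FPKM. Both day 6 libraries were above both day 4 libraries. The mean was 1.49 ± 0.0999 FPKM at day 4 and 6.58 ± 2.24 at day 6 (SD, n = 2), a ratio of 4.41, and the log2 difference was 1.57 (SE 0.44, limma adjusted p = 0.286). It was 1.53 and 1.61 without day 4 replicate 1 or 2, but 0.95 with centred libraries and 0.90 with the GC correction. The non-coding gene Gm26793 overlaps the start of Fgf15 on the other strand and was given as 0, 1.38, 0.664 and 1.07 FPKM. No source used here says whether the counting used strand, and without it reads of the 2 genes in the overlap cannot be told apart.

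Fgf3, an epithelial and hindbrain signal, measured 0.377, 3.07, 3.69 and 8.11 FPKM. The day 6 values were higher, but day 4 replicate 2 lay close to day 6 replicate 1, and the deposited interval of day 4 replicate 1 reached down to 0. The log2 difference was 1.46 (SE 0.73, limma adjusted p = 0.405), with 0.68 without day 4 replicate 1, 2.25 without day 4 replicate 2 and 0.84 with centred libraries. Fgf10, the mesenchymal ligand of limb and lung buds, measured 2.83, 0.896, 1.78 and 2.45 FPKM, and the days overlapped. Its log2 difference of 0.20 (SE 0.51, limma adjusted p = 0.863) turned negative with each library centred on its median (-0.43) and without day 4 replicate 2 (-0.31), and was 0.71 without day 4 replicate 1.

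The order of the ligands differed between the days. At day 4 the order by mean FPKM was Fgf8, Fgf17, Fgf4, Fgf10, Fgf3 and Fgf15. Fgf8 and Fgf17 overlapped, and so did the last 3 neighbours, whereas Fgf4 was apart from both sides. At day 6 the order was Fgf8, Fgf15, Fgf3, Fgf17, Fgf10 and Fgf4, in which Fgf15 overlapped with Fgf3 and Fgf17 with Fgf10. Summed over the 6 ligands, the level was 54.6, 273, 25.8 and 33.2 FPKM, and Fgf8 and Fgf17 together made up 85.2, 96.3, 56.4 and 41.7% of it. Within libraries, where a scaling factor common to all genes cancels but an effect of GC content need not, the ratio of Fgf8 to Fgf17 was 0.969, 1.24, 3.80 and 4.94. Fgf8 and Fgf17 were level at day 4 and Fgf8 was the higher of the pair at day 6, so the FPKM of Fgf17 was lower by the larger factor.

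**Figure D2:**
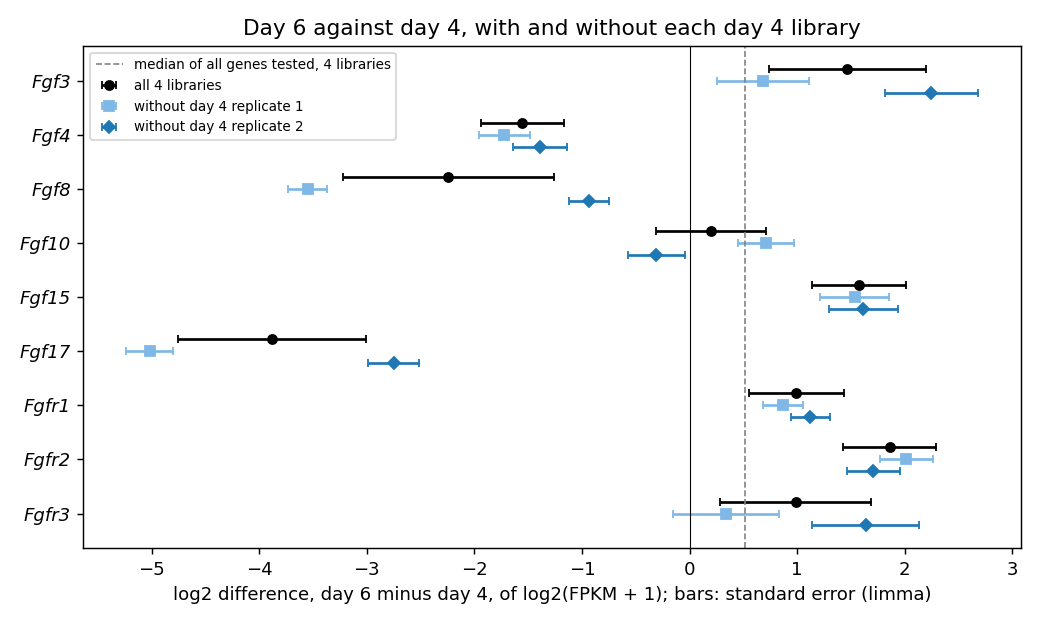
Log2 difference, day 6 minus day 4, of log2(FPKM + 1) for the 9 tested genes, with standard errors from limma, for all 4 libraries (black) and without day 4 replicate 1 or 2 (blue); the dashed line is the median of all genes, 0.51. Fgf8 moves from -2.24 to -3.55 and -0.93 as a day 4 library is left out, whereas Fgf4, Fgf15 and Fgfr2 stay within 0.2 of their value.

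Fgf3, Fgf4 and Fgf15 are neighbours on chromosome 7. Fgf3 (chr7:144838612-144843348) ends 18.0 kb before Fgf4 (chr7:144861386-144865243), which ends 31.3 kb before Fgf15 (chr7:144896532-144900951). Fgf4, in the middle, was lower at day 6, and both of its FGF neighbours were higher. Within libraries the ratio of Fgf3 to Fgf4 was 0.109, 0.665, 4.78 and 12.7, and that of Fgf15 to Fgf4 was 0.410, 0.338, 6.49 and 12.7. Both ratios were below 1 in the day 4 libraries and above 4 in the day 6 libraries, whatever common factor scales a library. The GC correction differs from gene to gene and was not applied to these ratios.

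Of 9 other genes chosen around the cluster, 6 were tested. Ccnd1, which encodes the cell cycle regulator cyclin D1 and lies beyond Fgf15, measured 73.5, 74.0, 16.02 and 14.5 FPKM (log2 difference -2.20, SE 0.42, limma adjusted p = 0.265; -2.21 and -2.20 without day 4 replicate 1 or 2). It was lower in both day 6 libraries, as Fgf4 was. LTO1, between Fgf15 and Ccnd1, measured 5.42, 3.52, 7.15 and 7.03 FPKM, and Cttn, Ppfia1 and Fadd on the far side of Fgf3 were also higher without overlap, by 0.56, 0.15 and 1.04. These 4 are 66.7% of the 6, against 41.5% of all genes. They were no longer higher without overlap when libraries were centred or corrected for GC content. In order along the cluster, on the deposited scale, Fgf3 was higher at day 6, Fgf4 lower, Fgf15 and LTO1 higher and Ccnd1 lower. With centred libraries Fgf3 overlapped too.

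**Figure D3:**
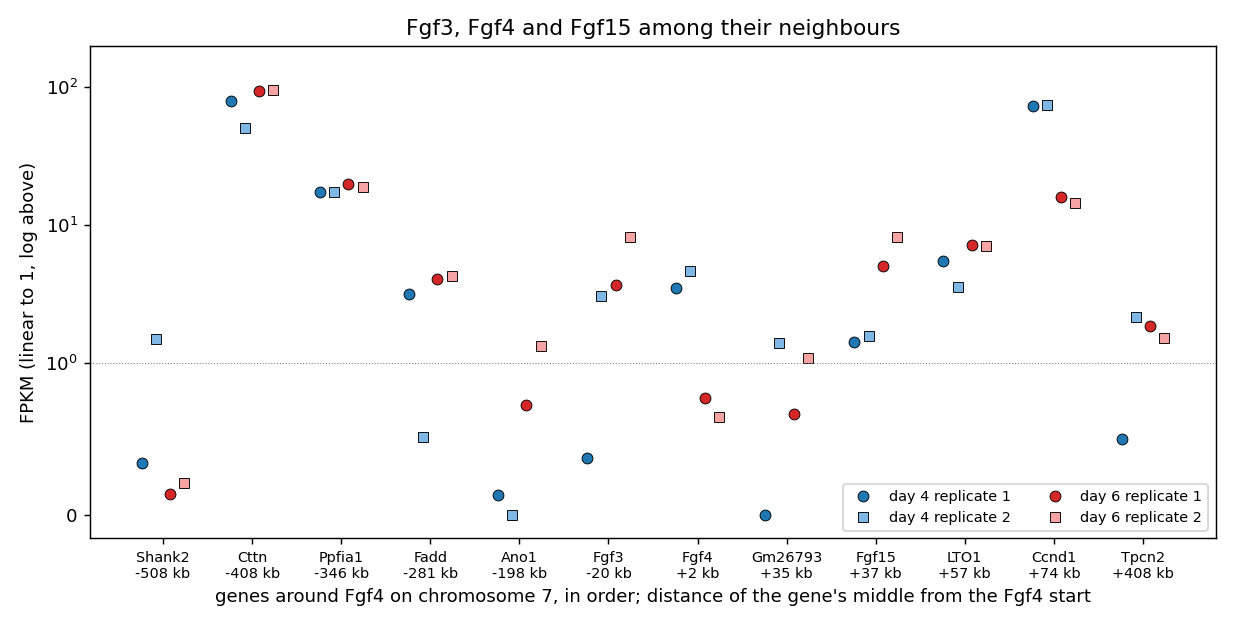
FPKM (linear to 1, logarithmic above) of the genes around Fgf4 that reached 1 FPKM in some library, in order along chromosome 7, with the distance of each gene's middle from the Fgf4 start. Fgf4 and Ccnd1 lie lower in both day 6 libraries (red) than in both day 4 libraries (blue), and Fgf3, Fgf15 and LTO1 lie higher.

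The 250 bases before the starts of Fgf3 (chr7:144838362-144838611) and Fgf4 (chr7:144861136-144861385), both on the plus strand, are shown because these 2 neighbours differed between the days in opposite directions. They come from RefSeq (GRCm38.p6), which gave such a window for 6 of the 10 genes. Capitals mark matches on either strand to GGGCGG (the Sp1 GC box), CCAAT (the CCAAT box) and CTTTGA (the core of TCF/LEF sites), which do not overlap each other here.
Fgf3 promoter: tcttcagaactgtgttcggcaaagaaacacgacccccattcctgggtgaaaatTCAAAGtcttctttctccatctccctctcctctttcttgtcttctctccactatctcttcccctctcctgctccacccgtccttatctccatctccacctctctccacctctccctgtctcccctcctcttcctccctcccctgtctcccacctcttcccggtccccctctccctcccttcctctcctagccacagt
Fgf4 promoter: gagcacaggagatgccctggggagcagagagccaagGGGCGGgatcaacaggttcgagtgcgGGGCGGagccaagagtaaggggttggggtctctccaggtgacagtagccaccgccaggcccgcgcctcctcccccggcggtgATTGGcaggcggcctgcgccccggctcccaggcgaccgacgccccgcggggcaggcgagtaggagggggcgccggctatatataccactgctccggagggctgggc
The Fgf4 window held 2 GC boxes and 1 CCAAT box, with 71.2% GC and 21 CpG dinucleotides. The Fgf3 window held 1 CTTTGA match, with 55.2% GC and 4 CpG dinucleotides, against a median of 6 over all 32851 windows of this length. GGGCGG occurs in 32.7% of all windows, CCAAT in 33.8% and CTTTGA in 13.8%. These are matches of letters, and binding was not measured.

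Fgfr1, the main FGF receptor of the epiblast and of embryonic stem cells, measured 39.2, 46.9, 80.8 and 92.2 FPKM. Both day 6 libraries were above both day 4 libraries. The mean was 43.1 ± 5.46 FPKM at day 4 and 86.5 ± 8.10 at day 6 (SD, n = 2), a ratio of 2.01. The log2 difference was 0.99 (SE 0.44, limma adjusted p = 0.374). It was 0.36 with libraries centred on their medians, where the days overlapped, 0.59 with the GC correction, and 0.87 and 1.12 without day 4 replicate 1 or 2. A non-coding gene within Fgfr1, Gm16159, was given as 0, 0, 0.388 and 0.444 FPKM.

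Fgfr2, the receptor of extraembryonic and epithelial tissue, measured 2.47, 1.81, 9.05 and 11.8 FPKM. All day 6 values were more than 3 times any day 4 value. The mean was 2.14 ± 0.467 FPKM at day 4 and 10.4 ± 1.97 at day 6 (SD, n = 2), a ratio of 4.87. The log2 difference of 1.86 (SE 0.43, limma adjusted p = 0.265) was the largest positive one of the 9 tested genes, and 8.63% of all genes had a larger one. It was 2.01 and 1.71 without day 4 replicate 1 or 2, 1.23 with centred libraries and 1.21 with the GC correction. Summed markers of extraembryonic endoderm, epithelium, fibroblasts, and mesenchyme and cardiac mesoderm were also higher at day 6. In that order, 5 of 5, 2 of 6, 5 of 6 and 3 of 4 tested markers were higher without overlap (41.5% of all genes). Neuroectoderm markers went the other way, with sums of 151, 97.7, 31.3 and 13.0 FPKM. Of the 3 tested, 0 were higher and 2 lower without overlap (11.5% of all genes were lower). The part of these cell types in the Fgfr2 values was not tested.

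Fgfr3, a receptor of neural and skeletal tissue, measured 0.771, 3.36, 2.70 and 7.22 FPKM, and the days overlapped. Replicate 2 was above replicate 1 on both days, by 4.36-fold and 2.68-fold. Its log2 difference was 0.99 (SE 0.70, limma adjusted p = 0.519), with 0.34 without day 4 replicate 1, 1.64 without day 4 replicate 2, 0.36 with centred libraries and 0.54 with the GC correction. Fgfr4, a receptor of endoderm, liver and muscle, measured 0.0654, 0.662, 1.18 and 1.96 FPKM. It was higher in both day 6 libraries, but its mean of 0.967 FPKM missed the minimum for testing. With a minimum of 0.1 FPKM its log2 difference was 0.93 (SE 0.37, limma adjusted p = 0.337), and 0.61 and 1.25 without day 4 replicate 1 or 2.

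Fgfr1 led the receptors in every library, with 92.2, 88.9, 86.2 and 81.5% of the summed receptor FPKM. Fgfr2 took 5.82, 3.44, 9.65 and 10.4%, Fgfr3 1.81, 6.37, 2.88 and 6.37%, and Fgfr4 0.154, 1.26, 1.26 and 1.73%. The Fgfr1 share was lower and the Fgfr2 share higher in both day 6 libraries. The ratio of Fgfr2 to Fgfr1 within libraries was 0.0631, 0.0387, 0.112 and 0.128. At day 4 Fgfr2 and Fgfr3 overlapped in level, and at day 6 the 4 receptors were apart in the order Fgfr1, Fgfr2, Fgfr3, Fgfr4. The receptors summed to 42.5, 52.8, 93.7 and 113 FPKM, so on the deposited scale summed receptor RNA was higher at day 6, and summed RNA of the 6 ligands lower.

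With 2 libraries against 2, an exact two-sided permutation test of a single gene cannot go below p = 0.333. Each of the 7 tested genes without overlap, and Fgfr4, reached that value, against 0.667 for Fgfr3 and 1 for Fgf10. Any gene or share without overlap gives that value by construction, so it adds nothing to the overlap call.

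Among transcript rows, 15 of the 20 had a mean of at least 1 FPKM and were tested. Of these, 7 were higher without overlap, 5 lower and 3 overlapped, where 39.8% of all 13859 tested rows were higher and 11.8% lower, 51.7% in all. No row passed an adjusted p of 0.05 in limma (0% of all rows, 2072 at an unadjusted p under 0.05). The split of FPKM between rows is an estimate that the quantifier made from shared reads, and rows of 1 gene are not independent.

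Fgf8 RNA was mostly assigned to NM_001166362, the Fgf8b form with the 33-base stretch. This row measured 17.0, 88.3, 6.97 and 7.44 FPKM, which is 74.3, 60.6, 60.6 and 64.6% of the gene, so it led in every library, and the days overlapped in share. The Fgf8a row without the stretch, NM_001166363, took 9.22, 23.2, 16.5 and 10.6%, and NM_010205, which has a 192-base longer upstream exon and also lacks the stretch, took 13.7, 8.84, 5.00 and 13.1%. The share of NM_001166361, which carries the stretch and a further exon of 87 bases, was 2.81, 7.36, 17.9 and 11.7%. It was higher in both day 6 libraries (difference 9.70 percentage points, exact permutation p = 0.333), while its level of 0.644, 10.7, 2.05 and 1.35 FPKM overlapped. The deposited interval of day 4 replicate 1 ran from 0 to 1.61 FPKM, so the low share there is imprecise. How often row shares lie apart between the days over all genes was not counted.

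Fgfr2 was given as its IIIb and its IIIc row. NM_201601, with the IIIb exon, measured 1.02, 0.714, 5.00 and 5.13 FPKM, and NM_010207, with the IIIc exon, measured 1.46, 1.10, 4.05 and 6.70 FPKM. Both rows were higher in both day 6 libraries, with log2 differences of 1.71 (SE 0.43) and 1.46 (SE 0.48) and limma adjusted p of 0.260 and 0.312. Without day 4 replicate 1 they were 1.82 and 1.57, and without day 4 replicate 2 they were 1.59 and 1.34. The IIIb row was 41.1, 39.4, 55.2 and 43.4% of the gene, below the IIIc row in 3 libraries and above it in day 6 replicate 1. The day 6 shares were higher without overlap by 9.09 percentage points on average (exact permutation p = 0.333). As for Fgf8, no count of such shares over all genes stands beside this. The rows also differ in exons of 78 and 267 bases that NM_201601 lacks, so the share is not set by the exon of the third domain alone.

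Fgfr3 had 1 row with the IIIb exon, NM_001163217, and 4 with the IIIc exon. The IIIc rows summed to 0.769, 3.36, 2.32 and 5.31 FPKM. The IIIb row was near 0 at day 4 (0.00210 FPKM in replicate 1) and measured 0.378 and 1.91 FPKM at day 6. It was above its day 4 level in both day 6 libraries, but its mean was under the minimum for testing. The leading row differed between replicates: NM_001163216 held 99.7% and 45.4% of the gene in replicate 1 of day 4 and day 6, and NM_008010 held 52.6% and 41.7% in replicate 2. No share of Fgfr3 was tested, since the gene was under 1 FPKM in day 4 replicate 1.

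Fgfr1 was split over 3 rows. NM_010206, the longest, measured 12.3, 23.9, 39.1 and 26.7 FPKM, and NM_001079908, which lacks the 6 bases shown above, measured 15.8, 23.0, 28.8 and 42.2 FPKM. Both were higher in both day 6 libraries, with log2 differences of 0.87 (SE 0.56) and 0.84 (SE 0.50), against a median of 0.53 over all rows tested. Without day 4 replicate 1 they were 0.42 and 0.58, and without day 4 replicate 2 they were 1.32 and 1.10. NM_001079909 lacks a 267-base exon, which in this gene encodes the first immunoglobulin-like domain. It measured 11.1 FPKM in day 4 replicate 1, near 0 in replicate 2, and 12.9 and 23.3 FPKM at day 6. This row was thus also higher in both day 6 libraries (log2 difference 2.40, SE 1.35, with 4.20 and 0.60 without day 4 replicate 1 or 2). Its share of the gene (28.2% in day 4 replicate 1, 15.9 and 25.3% at day 6) overlapped between the days, as did the shares of the other rows.

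**Figure D4:**
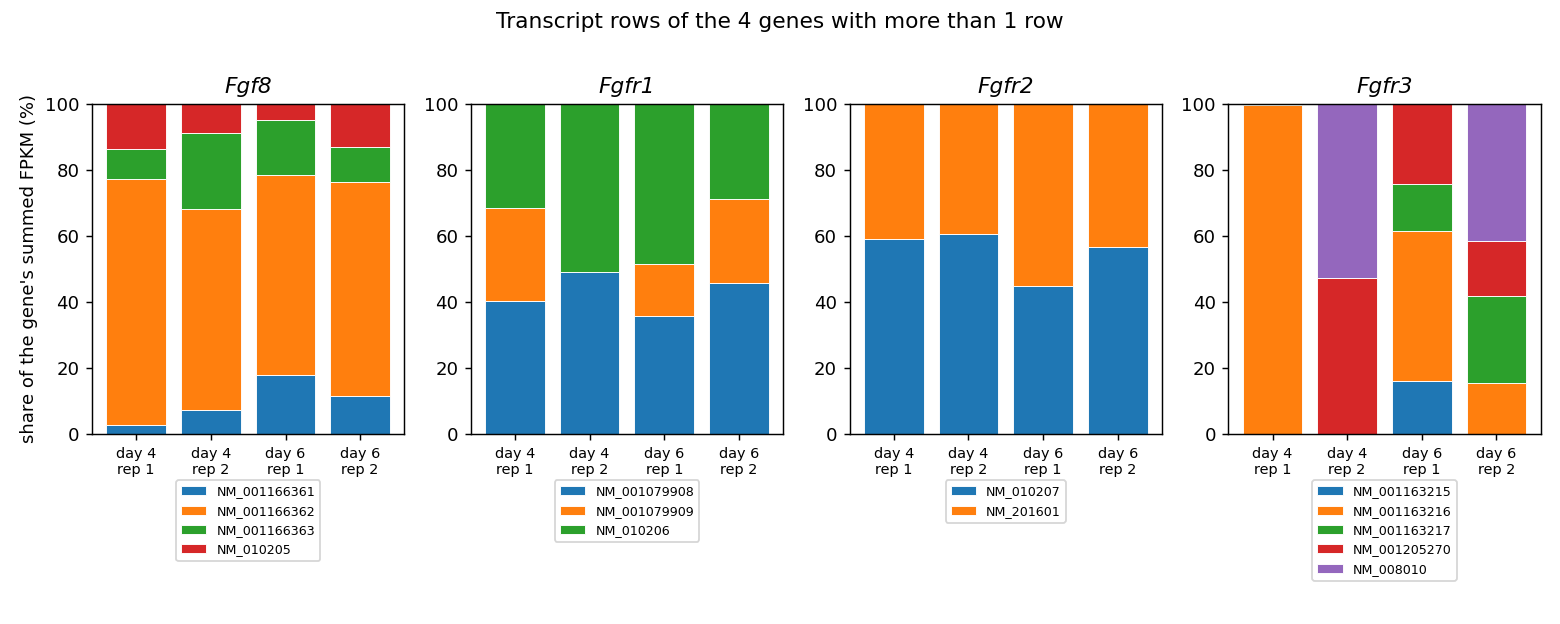
Share of each gene's summed FPKM (%) assigned to each transcript row, stacked to 100% per library, for the 4 genes with more than 1 row. NM_001166362 takes 60.6 to 74.3% of Fgf8 in every library, the IIIb row NM_201601 takes 39.4 to 55.2% of Fgfr2, and Fgfr3 is led by NM_001163216 in both replicate 1 libraries and by NM_008010 in both replicate 2 libraries.

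Rows of other genes in the pathway give the setting of these values. Of 12 other ligand genes, 2 were tested. Fgf5, a ligand of the primed epiblast, was the only one of the 12 above 2 FPKM in any library, with 37.8, 52.7, 2.45 and 1.55 FPKM, and was lower in both day 6 libraries (log2 difference -3.95, SE 0.46, limma adjusted p = 0.265). Without day 4 replicate 1 or 2 the difference was -4.18 and -3.71. Fgf18, the third gene of the Fgf8 subfamily, measured 1.27, 1.58, 1.68 and 0.500 FPKM and overlapped. Fgf1, Fgf6, Fgf7, Fgf16, Fgf20 and Fgf21 were listed at 0 in all 4 libraries. Of the 4 intracellular FGF homologous factors, which are not secreted, Fgf13 measured 9.87, 7.80, 4.44 and 2.31 FPKM.

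Of 12 genes for co-receptors, a decoy receptor and carriers of FGFs, 8 were tested. Without overlap, 6 were higher and 1 lower (75% and 12.5%, against 41.5% and 11.5% of all genes), and the median log2 difference was 1.07 against 0.51 for all genes. Fgfbp1, which releases FGFs from the matrix, measured 17.6, 7.26, 40.1 and 58.3 FPKM. Fgfrl1, the receptor-like protein without a kinase, measured 2.66, 3.96, 7.10 and 10.7 FPKM, and Flrt3, a membrane protein that binds FGF receptors, 2.76, 0.724, 8.81 and 6.40 FPKM. All 3 were higher in both day 6 libraries. With centred libraries 3 of the 8 were higher and 2 lower (37.5% and 25%, against 20.3% and 26.4% of all genes). The GC correction gave 4 higher and 2 lower (50% and 25%, against 28.1% and 27.3%). The median was 0.44 with centred libraries and 0.45 with the GC correction, against -0.12 and 0.02 for all genes.

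All 22 genes for heparan sulfate synthesis and its core proteins were tested. Without overlap, 13 were higher and 0 lower (59.1% and 0%, against 41.5% and 11.5% of all genes), and the median log2 difference was 0.85. Centred libraries gave 6 higher and 3 lower (27.3% and 13.6%, against 20.3% and 26.4%), with a median of 0.22. The GC correction gave 7 higher and 1 lower (31.8% and 4.55%, against 28.1% and 27.3%), with a median of 0.26. Gpc3, a glypican core protein, measured 31.3, 16.1, 113 and 162 FPKM. Ext2, which forms the chain polymerase with Ext1, measured 5.84, 5.98, 23.6 and 27.6 FPKM, and Ndst1, which starts sulfation, 6.68, 5.38, 20.7 and 21.5 FPKM. Of 24 genes for intracellular signal transduction, 13 were higher in both day 6 libraries and 1 lower (54.2% and 4.17%, against the same 41.5% and 11.5% of all genes), and the median was 0.68 (1.12 without day 4 replicate 1). Centred libraries gave 7 higher and 3 lower (29.2% and 12.5%), with a median of 0.05. The GC correction gave 11 higher and 3 lower (45.8% and 12.5%), with a median of 0.29. Frs2, the adaptor that docks on FGF receptors, measured 12.6, 2.43, 21.2 and 28.4 FPKM, and Map2k1, which encodes a MEK kinase, 10.7, 12.2, 31.0 and 34.2 FPKM. Both were higher in both day 6 libraries.

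Genes that ERK switches on, many of which dampen the pathway, were mostly lower at day 6. Of 16 tested, 9 were lower without overlap (56.2%, against 11.5% of all genes) and 1 higher, and the median was -1.01. With centred libraries or the GC correction 12 were lower (75%), where the share of all genes was also larger, at 26.4% and 27.3%. The median was -1.49 without day 4 replicate 1 and -0.66 without day 4 replicate 2. Spry4, an inhibitor of receptor tyrosine kinase signalling, measured 12.5, 8.97, 1.95 and 1.66 FPKM. Dusp6, an ERK phosphatase, measured 35.4, 90.0, 12.6 and 10.1 FPKM, and Etv4, a transcription factor of FGF target genes, 8.52, 47.0, 4.57 and 3.86 FPKM. All 3 were lower in both day 6 libraries. Day 4 replicate 2 was the highest library in Dusp6 and Etv4, as in Fgf8 and Fgf17, whereas Spry4 was highest in day 4 replicate 1. Replicate 2 was also the highest in genes outside this list, such as Ptbp1 (123 and 527 FPKM at day 4). Its gap to replicate 1 moved with GC content, and a link between ligands and these genes was not tested.

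Of 4 splicing factors that act on the IIIb or IIIc exon, Esrp2, which favours IIIb in epithelia, measured 13.5, 27.1, 53.3 and 39.9 FPKM, and Esrp1 measured 21.997, 8.76, 17.1 and 19.0 FPKM. Rbfox2 measured 13.2, 13.7, 17.2 and 16.5 FPKM and Ptbp1 measured 123, 527, 275 and 276 FPKM. Esrp2 and Rbfox2 were higher in both day 6 libraries (50%, against 41.5% of all genes) and the other 2 overlapped. The log2 difference of Rbfox2, 0.30, was below the median of 0.51 for all genes. With centred libraries 0 of the 4 were higher without overlap and 1 lower (20.3% and 26.4% of all genes). With the GC correction 1 was higher and 2 lower (28.1% and 27.3% of all genes). Any part of these factors in the shares of the Fgfr2 rows was not tested. No gene of any of these lists passed an adjusted p of 0.05 in limma.

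**Figure D5:**
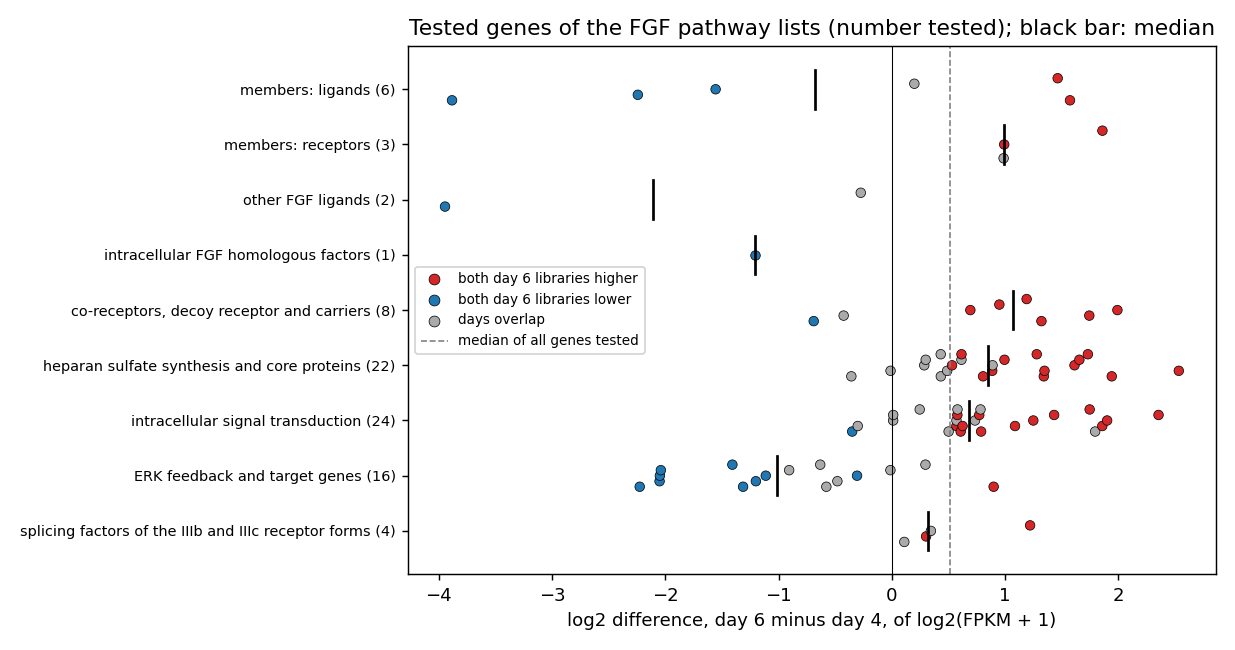
Log2 difference, day 6 minus day 4, of each tested gene of the FGF pathway lists; red points were higher and blue points lower in both day 6 libraries, grey points overlapped, black bars are list medians and the dashed line is the median of all genes. On the deposited scale, the ERK feedback and target list has a median of -1.01, and the co-receptor, heparan sulfate and signal transduction lists have medians of 1.07, 0.85 and 0.68.

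The genes most like the ligands and receptors with the largest differences were found by the Euclidean distance between centred log2(FPKM + 1) profiles over the 4 libraries. Nearest to Fgf17 were A230070E04Rik (distance 0.443), 1190005I06Rik (0.516) and Mab21l4 (0.517), and A230070E04Rik measured 25.2, 93.7, 3.51 and 1.70 FPKM. Nearest to Fgf8 were Glis1 (0.165), Rln3 (0.168) and N4bp3 (0.258). Nearest to Fgfr2 were Snapin (0.0468), Adam19 (0.105) and Tkfc (0.119), and nearest to Fgf15 were Vsir (0.0871), Ripply1 (0.0910) and Ulk2 (0.0973). Glis1 (4.13, 31.6, 2.05 and 2.05 FPKM) shared with Fgf8 both the high value of day 4 replicate 2 and the near equality of the day 6 libraries. With 4 libraries such distances describe these profiles only.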

How the data were processed

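RNA was measured in 4 libraries, 2 harvested at day 4 and 2 at day 6, grouped by their titles. Per the labels' protocols, RNA was extracted with TRIzol, selected on oligo(dT) beads and made into libraries with a stranded TruSeq kit. CASAVA and TopHat2 version 2.0.11 with mm10 are named per the submitters' processing notes. Quantifier, annotation and use of strand: not given in the sources used here. The authors deposited FPKM with a lower and an upper bound for 35656 transcript rows per library, and a coverage signal, which the authors deposited beside them and which was used only with the bounds to describe depth. The tables hold no counts, so depth is an estimate and the bounds cover counting error only.

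Rows were joined between libraries by transcript ID and locus. Of the rows, 94.2% were given a symbol by transcript ID from a RefSeq table (GRCm38.p6) or GENCODE M21, 2081 kept their ID, and FPKM of a symbol was summed. Tests used limma 3.58.1 in R 4.3.3 on log2 values after adding a pseudocount of 1 FPKM, over genes or rows whose mean reached 1 FPKM, two-sided with Benjamini-Hochberg adjustment over all of them and no replicate block. Differences on this scale understate the change of low genes. The fit was tested on simulated data with spread drawn independently for each gene and library. That leaves out shifts shared by many genes of a library, such as that of day 4 replicate 2. Recovery of changed genes was required only at a spread smaller than the real one. Shares of transcript rows were compared by an exact permutation test. Alternatives were a pseudocount of 0.1 FPKM, other minimums, RefSeq rows only, libraries centred on their medians, a lowess correction for GC content (span 0.3), a replicate block, and leaving out each library. The named genes are the 10 members, their rows, up to 5 genes a list with the largest log2 difference among those without overlap, a few genes named for their role, and the 3 nearest profiles of 4 members. Other scalings of the lists, and lists and 3 single genes without each day 4 library, were added after seeing the data. Members and lists were chosen with earlier results of these data known. The sequence of 1 receptor exon is not reported here.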

Additional observations from a re-analysis of the deposited data

How the results depend on the processing

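Of the 9 tested genes, all but Fgf10 kept their direction under every alternative. Fgf10 had a log2 difference of -0.43 with centred libraries, -0.19 with the GC correction, with or without the replicate block, and -0.31 to 0.71 as single libraries were left out, negative without day 4 replicate 2. Leaving out each library in turn gave 0 to 7834 genes, 0 to 8 of the 9 genes, 0 to 7663 rows and 0 to 9 of the 15 rows past an adjusted p of 0.05 in limma. The counts above 0 came only from leaving out a day 4 library (7834 genes without replicate 1 and 6065 without replicate 2, with 6 and 8 of the 9, 7663 and 4811 rows, and 9 and 4 of the 15 rows), a fit that takes the spread of the lone day 4 library from day 6. With 1 day 6 library left out the count was 0. Among rows, leaving out single libraries gave NM_008010 (Fgfr3) -0.73 to 1.27, negative without day 4 replicate 1 (-0.47) and day 6 replicate 2. The same gave NM_008002 (Fgf10) -0.31 to 0.71 and NM_001166361 (Fgf8) -2.13 to 0.70, each reversed without day 4 replicate 2. The cause was not tested. With the replicate block, 74 genes passed, 60 of them higher, with Fgf17 among them (adjusted p = 0.0383), and 1 row. With the replicate block and the GC correction 2 genes passed and Fgf17 did not (adjusted p = 0.0736). The deviations of same-numbered libraries correlated at -0.089 across genes. With 2 libraries a day this only compares the day 4 gap with the day 6 gap. It cannot show whether same-numbered libraries share a culture. The other alternatives left 0 genes past the threshold. Rows were refitted only with a pseudocount of 0.1 FPKM (0 rows), with the block and without each library.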
